A study of Mus musculus with 4 samples.

Results

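The cells described here are bone marrow T cells in which no CD8 transcript was read. They were chosen by the transcripts read in them, among barcodes with at least 500 genes, at least 1000 transcript counts (unique molecular identifiers, UMIs) and at most 10% of UMIs from mitochondrial genes. A barcode was taken when it had at least 2 UMIs over Cd3e, Cd3d and Cd3g, no UMI of Cd8a or Cd8b1, no UMI of the B cell gene Cd79a, and less than 0.5% of its UMIs from the neutrophil granule genes Camp and Ngp. That left 851 of 31209 kept barcodes, out of 34670 in the 4 libraries. Of the 851, 361 had at least 1 Cd4 UMI and are called Cd4+ cells below, and 490 had none and are called Cd4- cells. These names refer to transcripts only. The same limits with at least 1 CD8 UMI and no Cd4 UMI gave 170 CD8 T cells, used for comparison, and 5 barcodes had both.

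All 4 libraries came from mice that had been lethally irradiated and then given equal parts of CD45.1+ Tet2+/+ and CD45.2+ Tet2+/- marrow, and only CD45.2+ cells were profiled. After 1 month of engraftment the mice were treated for 7 months. The Control group received PBS by intraperitoneal injection and 100 mM sodium chloride in the drinking water, and the Butyrate group PBS and 100 mM sodium butyrate. The B12 group received 0.29 µg of vitamin B12 by injection 2 times a week with 100 mM sodium chloride, and the B12+Butyrate group received both agents. Frozen marrow from 3 mice was pooled per group, sorted for live (DAPI-) CD45.2+ cells, and remixed from Kit+ and Kit- fractions at 50:50 before 1 10x Genomics 3' v3.1 library was made. A group is therefore 1 library, its mice cannot be told apart, and treatment comparisons carry counting error only and no test. All profiled donor cells were labelled Tet2+/-, so a T cell with normal Tet2 was not available for comparison. The sources used here do not give the CD45 type of the irradiated hosts, so whether long-lived host T cells are among these cells cannot be told apart from donor origin. Age and sex are likewise not given. Values for the 4 libraries are listed below in the order Control, Butyrate, B12 and B12+Butyrate.

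T cells recognise antigen through a receptor made of alpha and beta or gamma and delta chains, held at the surface by the CD3 proteins. Helper and regulatory T cells carry the CD4 coreceptor, killer T cells carry CD8, and most gamma-delta T cells and many natural killer T (NKT) cells carry neither. Bone marrow holds mature T cells of all these kinds, among them regulatory T cells that keep FOXP3 expression and memory cells that persist away from the circulation.

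The receptor genes, which the rule did not use, were read in nearly all of these cells. A UMI of Trac, Trbc1 or Trbc2, the constant parts of the alpha and beta chains, was found in 807 of 851 cells (94.8%). The share was 98.6% of Cd4+ cells and 92.0% of Cd4- cells, against 0.552% of B cells and 0.217% of neutrophils, which should lack these genes. Trac alone was read in 87.5% of Cd4+ cells and 66.9% of Cd4- cells. Natural killer cells were not among the cells compared, so whether some are among the Cd4- cells was not tested. Trac averaged 581, 580.3, 338 and 553 UMIs per 1000000 UMIs of the summed cells (CPM) in Cd4+ cells of the 4 libraries and 298, 347, 230.3 and 261 CPM in Cd4- cells. Of the 7 genes in the list for immature thymocytes, 5 were at or near 0. Rag1, which cuts the receptor genes during rearrangement, had no UMI in any of the cells, and Dntt, which adds bases at the joins, did not pass 2.24 CPM in any library. Rag2, Ptcra and Hes1 had 2, 0 and 1 UMIs in all. The other two were present, with the lipid-presenting molecule Cd1d1 at 13.5, 14.1, 13.6 and 12.9 CPM and the receptor Notch1, which mature T cells also use, at 69.1, 76.5, 66.6 and 78.6 CPM. Ccr7, the lymph node homing receptor of naive and central memory T cells, lay between 0 and 9.56 CPM. The cells labelled mature T cells without CD8 transcripts thus mostly had alpha or beta constant transcripts, with few or no UMIs of the rearrangement genes Rag1, Rag2 and Dntt.

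The limits themselves divided cells with little difference in counts. There were 89 members with exactly 2 Cd3 UMIs, the minimum, and 243 barcodes with 1 that met every other limit. A single CD8 UMI left out 46 barcodes, a Cd79a UMI alone left out 43, and the Camp and Ngp limit alone left out 189. Only 9 members lay between 0.25% and 0.5% of Camp and Ngp, and 3 barcodes lay between 0.5% and 1%. The absence of a Cd4 UMI does not show absence of the transcript: 77, 45, 18 and 28 of the Cd4+ cells in the 4 libraries had a single Cd4 UMI.

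Depth was lower in these cells than in the rest of the marrow. The member cells summed to 2069532, 1634286, 660510 and 1005199 UMIs, and the median per cell was 4762 to 5458 UMIs, against 11972 to 12668.5 in all other barcodes. Cd4+ and Cd4- cells were of similar depth, with medians of 4194 to 5144 and 5064 to 5865 UMIs. Mitochondrial UMIs had medians of 2.04 to 2.72%. Across pairs of libraries 127 barcodes were shared, none of them members. RNA of other cell types was present and unequal. The summed level of 10 neutrophil genes was 1080.4, 2668, 858 and 557 CPM in Cd4+ cells and 17886, 2899.5, 10425 and 8445 CPM in Cd4- cells, against 135162 to 173491 CPM in all other barcodes. Leaving out 69 members rich in myeloid RNA lowered it to 1388, 623, 755 and 703 CPM in Cd4- cells. The summed level of 8 progenitor genes (Mpo, Elane, Prtn3, Ctsg, Kit, Cd34, Flt3 and Ms4a3) was 1230.1, 355, 2808 and 59.4 CPM in Cd4+ cells and 5410.5, 135, 1494 and 1843 CPM in Cd4- cells. Erythroid and platelet genes summed to 0 to 11 CPM. The part of this RNA in the differences below was not tested, except where a value without those 69 cells is given.

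T cells without CD8 transcripts made up 3.76% (95% interval 3.37 to 4.18%, 329 of 8752) of kept barcodes in Control and 3.90% (95% interval 3.45 to 4.39%, 265 of 6793) in Butyrate. The share was 1.32% (95% interval 1.08 to 1.59%, 106 of 8048) in B12 and 1.98% (95% interval 1.68 to 2.32%, 151 of 7616) in B12+Butyrate. Both libraries of B12-treated mice were below both libraries without B12, with intervals that did not overlap. The ratio of shares was 0.350 (95% interval 0.282 to 0.435) for B12 against Control and 0.508 (95% interval 0.417 to 0.619) for B12+Butyrate against Butyrate. Butyrate against Control gave 1.04 (95% interval 0.886 to 1.22), and B12+Butyrate against B12 gave 1.51 (95% interval 1.18 to 1.93). With every barcode thinned to 2000 UMIs, which leaves out shallower barcodes, the last ratio was 1.27 (95% interval 0.968 to 1.66) and included 1. All intervals cover the counting of cells only, exact (Clopper-Pearson) for shares, and not the spread between mice. The Kit+ to Kit- mix was set at the sort, so these are shares of a remixed sample and not of whole marrow, and fewer T cells cannot be told apart from more of the other cells.

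The share was lower under B12 in both Cd4+ and Cd4- cells. For B12 against Control it was further so in Cd4+ cells, while for B12+Butyrate against Butyrate it was not. Cd4+ cells were 1.79, 1.58, 0.373 and 0.880% of kept barcodes, while Cd4- cells were 1.97, 2.33, 0.944 and 1.10%. For B12 against Control the ratio was 0.208 (95% interval 0.141 to 0.307) in Cd4+ cells and 0.481 (95% interval 0.367 to 0.628) in Cd4- cells, and these intervals did not overlap. CD8 T cells, for reference, were 0.663, 0.662, 0.460 and 0.394% of kept barcodes, a ratio of 0.694 (95% interval 0.460 to 1.05) for B12 against Control. For B12+Butyrate against B12 the ratio was 2.36 (95% interval 1.54 to 3.63) in Cd4+ cells and 1.17 (95% interval 0.858 to 1.59) in Cd4- cells. Within the T cells without CD8 transcripts, Cd4+ cells were 47.7% (95% interval 42.2 to 53.3%, 157 of 329) in Control and 40.4% (95% interval 34.4 to 46.6%, 107 of 265) in Butyrate. They were 28.3% (95% interval 19.98 to 37.9%, 30 of 106) in B12 and 44.4% (95% interval 36.3 to 52.7%, 67 of 151) in B12+Butyrate. B12 had the lowest Cd4+ share and Control the highest, and their intervals did not overlap, while the other pairs of libraries overlapped. At 2000 UMIs a cell the order was the same, with 33.3, 23.2, 15.8 and 25.9%.

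**Figure D1:**
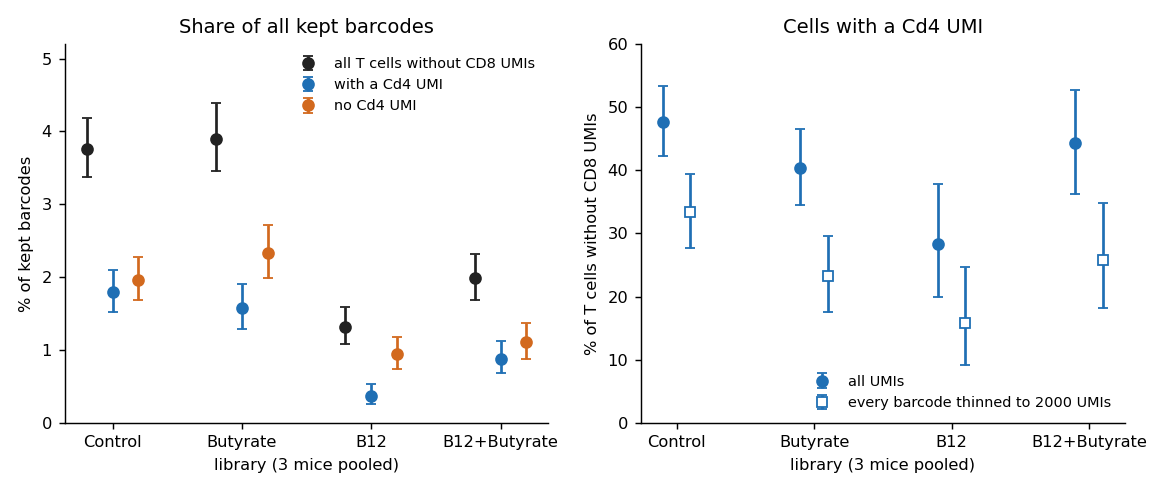
Shares of cells by library with exact 95% binomial intervals, which cover counting error only. Left, T cells without CD8 transcripts and their Cd4+ and Cd4- parts as percent of kept barcodes; the 2 libraries of B12-treated mice sit at 1.32 and 1.98%, below 3.76 and 3.90%. Right, the percent of T cells without CD8 transcripts with a Cd4 UMI, at full depth and thinned to 2000 UMIs, lowest in B12 at 28.3 and 15.8%.

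Cd4+ and Cd4- cells were then compared within the 4 libraries, to ask what else differed between cells split by 1 transcript. Cd4+ cells had more RNA of follicular helper and exhaustion-associated genes (Il21, Sostdc1, Tox, Tnfsf8, Pdcd1), of regulatory T cell genes (Foxp3, Ctla4, Nrp1) and of helper genes (Icos, Cd40lg). Cd4- cells had more RNA of natural killer receptors, of the delta chain Trdc, and of cytotoxic and chemokine genes (Nkg7, Xcl1, Ccl5). UMIs were summed per library and population and tested with edgeR's quasi-likelihood test, with the library as a block and Benjamini-Hochberg adjustment over 7531 genes, so that each difference is judged against its spread over 4 library pairs, which differ in treatment and are each a pool of mice. Adjusted p values for this comparison are from that test, and fold changes are log2 of Cd4+ over Cd4-. Of all genes tested, 313 were higher in Cd4+ cells (4.16%) and 353 lower (4.69%). The Control library carried the most cells, and without it the counts were 202 and 235. With the 69 members rich in myeloid RNA left out they were 364 and 416. The median log2 fold change of all genes was -0.01.

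**Figure D2:**
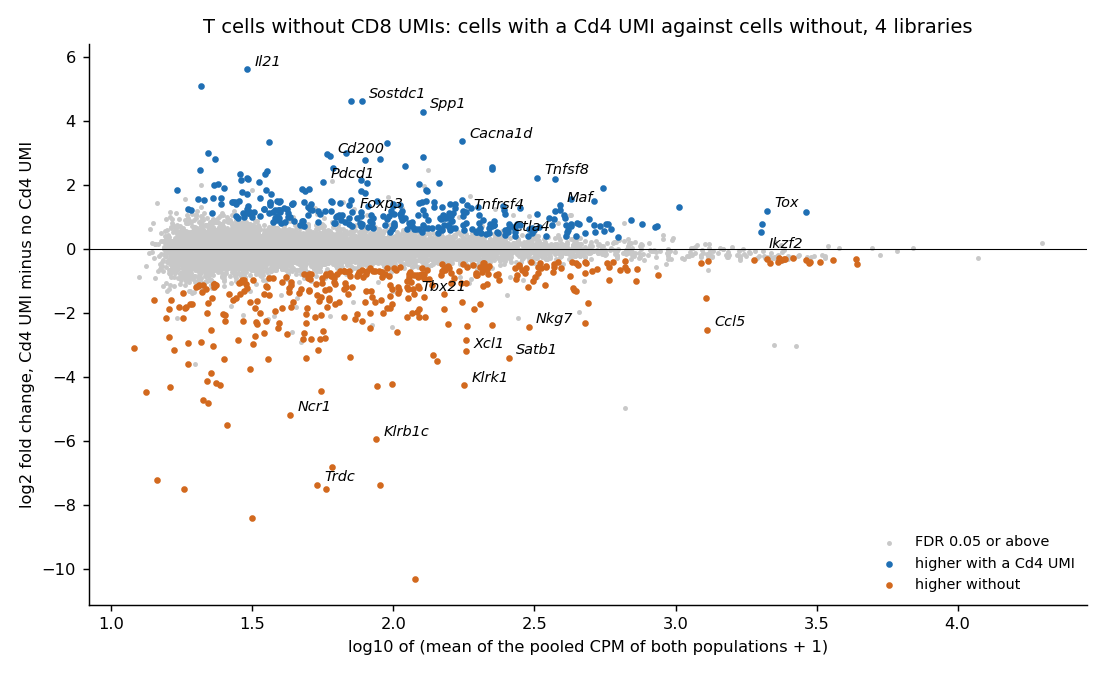
Log2 fold change of Cd4+ over Cd4- cells (vertical axis) against the log10 of the mean CPM of both populations plus 1 (horizontal axis) for the 7531 genes tested with edgeR; coloured points have an adjusted p under 0.05, and named points are genes given in the text. Il21, Sostdc1 and Cacna1d lie at the top, and the natural killer receptor genes and Trdc at the bottom.

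Of 12 measured genes of the PD-1 and follicular helper list, 8 were higher in Cd4+ cells, 1 was lower and 3 did not pass the test, against 8.84% of all genes called in either direction, with a list median of 1.79. Il21, the cytokine by which follicular helper cells act on B cells, was at 57.4, 63.8, 56.3 and 50.3 CPM in Cd4+ cells and 0.886, 1.02, 2.24 and 0 CPM in Cd4- cells. With 130 UMIs against 3 in all, the pooled ratio was 60.05-fold (95% counting interval 20.1 to 295). Every Cd4+ value was above every Cd4- value. Sostdc1, a secreted BMP and WNT antagonist also made by follicular helper cells, had 244, 66.8, 65.6 and 98.2 CPM against 7.98, 7.17, 0 and 0 CPM (log2 fold change 4.61, SE 0.40, adjusted p = 8.1e-06). Control was highest among the Cd4+ values, and the other 3 libraries lay close together. Those values came from only 28, 10, 2 and 4 cells, and 1 cell held 71.4% of the UMIs in B12 and 74.4% in B12+Butyrate. Tnfsf8, the ligand of CD30, had 717, 497, 319 and 368 CPM against 84.2, 124, 73.8 and 104 CPM (log2 fold change 2.23, SE 0.20, adjusted p = 1.4e-05). Tox, a nuclear factor of persistently stimulated and follicular helper cells, had 3501, 2775, 1894 and 3097 CPM against 1088, 1157, 1147 and 1285 CPM (log2 fold change 1.19, SE 0.13, adjusted p = 5.3e-05). All 4 Cd4+ values of each gene were above all 4 Cd4- values. Pdcd1, which encodes the inhibitory receptor PD-1, had 135, 71.4, 37.5 and 59.4 CPM against 23.05, 17.4, 13.4 and 15.9 CPM (log2 fold change 2.09, SE 0.24, adjusted p = 2.6e-05). Its Cd4+ level was lowest in B12 and highest in Control. Lag3, another inhibitory receptor, and Slamf6, an adhesion receptor of the SLAM family, had log2 fold changes of 2.33 and 1.49 (adjusted p = 0.00037 and 3.3e-05). Tox2, a relative of Tox, had 2.53 (adjusted p = 4.5e-05). The listed gene that was lower was Eomes, a factor of cytotoxic cells (log2 fold change -3.75, SE 0.35, adjusted p = 3.3e-06). Bcl6, the factor that directs follicular helper cells, had a log2 fold change of -0.30 and did not pass (adjusted p = 0.50), and Cxcr5, their follicle homing receptor, was too low to be tested. At 2000 UMIs a cell, Tox2 and Pdcd1 no longer passed (adjusted p = 0.78 and 0.077).

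Several genes outside the lists followed the same direction, chosen as those with the largest fold change that passed. Cacna1d, an L-type calcium channel subunit, had 521, 143, 150.01 and 260.4 CPM in Cd4+ cells against 23.05, 13.3, 38.01 and 31.7 CPM in Cd4- cells (log2 fold change 3.36, SE 0.37, adjusted p = 0.0013). Cd200, an inhibitory surface protein, had 126, 68.4, 131 and 95.9 CPM against 15.1, 12.3, 4.47 and 17.6 CPM (log2 fold change 2.90, SE 0.28, adjusted p = 4.4e-06). Each of the 4 libraries had the higher value in Cd4+ cells. Hs6st3, a heparan sulfate sulfotransferase, had 167, 86.6, 89.1 and 158 CPM against 15.1, 0, 0 and 0 CPM (log2 fold change 4.62, SE 0.64, adjusted p = 0.0083). Its Cd4+ values came from only 16, 7, 3 and 4 cells, with 25.5, 54.4, 47.4 and 39.1% of the UMIs in 1 cell. The matrix protein tenascin C, Tnc, had 77.5, 68.4, 65.6 and 29.7 CPM against 6.20, 9.22, 6.71 and 0 CPM (log2 fold change 3.33, SE 0.34, adjusted p = 8.6e-06). Control was the highest of the Cd4+ values for Cacna1d. Spp1, which encodes osteopontin, had 339.9, 39.5, 595 and 151 CPM against 2.66, 4.10, 69.3 and 1.76 CPM (log2 fold change 4.29, SE 0.68, adjusted p = 0.037). Its call was lost when Butyrate or B12+Butyrate was left out (adjusted p = 0.17 and 0.13), and in B12 a single cell held 97.6% of its UMIs in Cd4+ cells and another 96.8% of those in Cd4- cells. The transcription factor gene Tshz2 had a log2 fold change of 2.80 (adjusted p = 0.012), which did not pass without Butyrate or without B12 (adjusted p = 0.058 and 0.056).

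Among 11 measured regulatory T cell genes, 7 were higher in Cd4+ cells, none was lower and 4 did not pass, with a median of 0.82. Foxp3, the factor that defines regulatory T cells, had 96.7, 69.9, 117 and 132 CPM in Cd4+ cells and 47.9, 45.1, 35.8 and 35.2 CPM in Cd4- cells (log2 fold change 1.17, SE 0.22, adjusted p = 0.0022). Cd4- cells were lower in each library, and all 4 of them had Foxp3 UMIs. Ctla4, an inhibitory receptor of regulatory cells, had 339.9, 439, 145 and 331 CPM against 168, 149, 116 and 130.4 CPM (log2 fold change 1.08, SE 0.17, adjusted p = 0.00059). Nrp1, neuropilin-1, had 709, 623, 581 and 537 CPM against 247, 206, 149.8 and 187 CPM (log2 fold change 1.58, SE 0.12, adjusted p = 5.1e-07). Izumo1r, the folate receptor 4 of regulatory cells, had 216, 248, 75.01 and 235 CPM against 90.4, 86.1, 62.6 and 59.9 CPM (log2 fold change 1.31, SE 0.20, adjusted p = 0.00049). These 3 genes were higher in Cd4+ cells of all 4 libraries. Ikzf2, which encodes Helios, had 2513, 2268, 1538 and 3072 CPM against 1629, 1574, 1418 and 1496 CPM (log2 fold change 0.53, SE 0.13, adjusted p = 0.016). Its difference was small, and the call was lost without Control, Butyrate or B12+Butyrate (adjusted p = 0.076, 0.055 and 0.19). Il2ra, the high-affinity part of the interleukin-2 receptor, had 0.23 and Tnfrsf9 had 0.15 and neither passed (adjusted p = 0.60 and 0.78). At 2000 UMIs a cell Foxp3 itself did not pass (adjusted p = 0.65).

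In single cells, a Foxp3 UMI was found in 26.1, 25.2, 36.7 and 35.8% of Cd4+ cells and 18.6, 16.5, 13.2 and 15.5% of Cd4- cells. At 2000 UMIs a cell the shares were 17.3, 19.4, 23.3 and 16.9% and 15.2, 10.7, 5.56 and 13.8%. Of 184 cells with a Foxp3 UMI, 81 had no Cd4 UMI. The share was 1 of 170 in CD8 T cells, 0.153% in B cells (median 4564.5 to 5356.5 UMIs by library) and 0.153% in neutrophils (15590.5 to 16576 UMIs). The Cd4- share was thus far above that of cell types that should lack Foxp3, at a depth close to that of B cells.

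Of 5 measured helper genes other than Cd4, 4 were higher in Cd4+ cells and Zbtb7b, the factor that directs cells to the CD4 lineage, had 0.84 and did not pass (adjusted p = 0.12). Icos, a costimulatory receptor, had 214, 255, 225 and 235 CPM against 114, 111, 71.6 and 63.4 CPM (log2 fold change 1.29, SE 0.17, adjusted p = 9.2e-05). Cd40lg, the ligand by which helper cells activate B cells, had 77.5, 141, 113 and 66.2 CPM against 38.1, 69.7, 38.01 and 45.8 CPM (log2 fold change 0.96, SE 0.19, adjusted p = 0.0041), and it did not pass at 2000 UMIs a cell (adjusted p = 0.52). Tnfrsf4, which encodes OX40, had 1.14 (adjusted p = 0.0018). Of 17 genes of the receptor complex and its signalling, 7 were higher, none was lower, and the median was 0.42. Trac had a log2 fold change of 0.79, Cd247 (the zeta chain) 0.91, and Cd5, which dampens receptor signals, 1.28 (adjusted p = 0.00046, 0.00086 and 6.9e-05). Trbc1 and Trbc2, near-identical beta constant genes whose reads can be split between them, had 0.42 and 0.30 and did not pass (adjusted p = 0.091 and 0.22). Maf, a factor of helper cells that make interleukin-21 and interleukin-10, had 545, 656, 469 and 475 CPM against 215, 289.95, 174 and 134 CPM (log2 fold change 1.37, SE 0.13, adjusted p = 4.3e-06). All Cd4+ values of Maf lay above all Cd4- values. Notch1, the 1 measured gene of the immature T list, had 0.73 (adjusted p = 0.022), and its call was lost without Butyrate or B12+Butyrate (adjusted p = 0.081 and 0.070).

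The genes lower in Cd4+ cells were led by natural killer receptors. Of 7 measured NK cell genes 5 were lower and none higher, of 8 NKT genes 6 were lower and 1 higher, of 12 cytotoxic genes 9 were lower and none higher, and of 5 gamma-delta genes all 5 were lower. Klrb1c, which encodes NK1.1, had 5.31, 0, 0 and 2.28 CPM in Cd4+ cells and 126, 192, 134 and 243 CPM in Cd4- cells (log2 fold change -5.95, SE 0.38, adjusted p = 2.0e-07). Ncr1, the receptor NKp46, had 0, 1.52, 0 and 9.14 CPM against 46.98, 64.5, 55.9 and 201 CPM (log2 fold change -5.19, SE 0.40, adjusted p = 4.3e-07). Both were close to absent from Cd4+ cells. Klrk1, which encodes NKG2D, had 13.8, 7.60, 14.1 and 43.4 CPM against 242, 385, 380.1 and 407 CPM (log2 fold change -4.26, SE 0.29, adjusted p = 8.7e-06). Klrc1 and Klre1, receptors of the NKG2 and KLRE families, had 2 UMIs each in all Cd4+ cells, and Cd4- cells were 133-fold (95% counting interval 36.6 to 1104) and 198-fold (95% counting interval 54.6 to 1639.8) higher in pooled CPM. Klra7, a Ly49 receptor, had 1 UMI in Cd4+ cells against 352 in Cd4- cells, which is 254-fold (95% counting interval 45.3 to 10062) higher. Klra4 had none, and a floor of 3 UMIs over the group gave 45.9-fold more in Cd4- cells. That bound takes UMIs of 1 cell as independent and is overstated. Klra4 was read in only 5, 2, 3 and 7 Cd4- cells by library, and 1 cell held 82.4% of its Butyrate UMIs. Klra genes are close copies of each other, so the split of counts between them is uncertain. A gene listed only as ENSMUSG00000121360 had no UMI in Cd4+ cells and 738 in Cd4- cells, 178-fold on the same floor. Its UMIs came from 25, 23, 13 and 14 Cd4- cells by library. Samd3 and the signalling adaptor gene Clnk had log2 fold changes of -4.22 and -4.28 (adjusted p = 2.3e-08 and 0.00036).

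Trdc, the constant part of the delta chain, had 1.06, 0, 0 and 0 CPM in Cd4+ cells and 62.9, 91.2, 145 and 179.8 CPM in Cd4- cells. With 1 UMI against 327, the pooled level was 236-fold (95% counting interval 42.1 to 9349) higher in Cd4- cells. Trgv2, a gamma variable gene, had no UMI in Cd4+ cells and 107 in Cd4- cells, at least 25.7-fold. The receptor of gamma-delta T cells was thus read almost entirely in cells without a Cd4 UMI. Zbtb16, which encodes PLZF, the factor of NKT cells and some gamma-delta cells, had 10.6, 10.6, 37.5 and 0 CPM against 75.3, 63.5, 73.8 and 70.5 CPM (log2 fold change -2.67, SE 0.45, adjusted p = 0.0038), and it did not pass without Control (adjusted p = 0.093). The NKT gene that was higher in Cd4+ cells was Slamf1, a SLAM family receptor also made by helper cells (log2 fold change 1.37, SE 0.25, adjusted p = 0.0019).

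**Figure D3:**
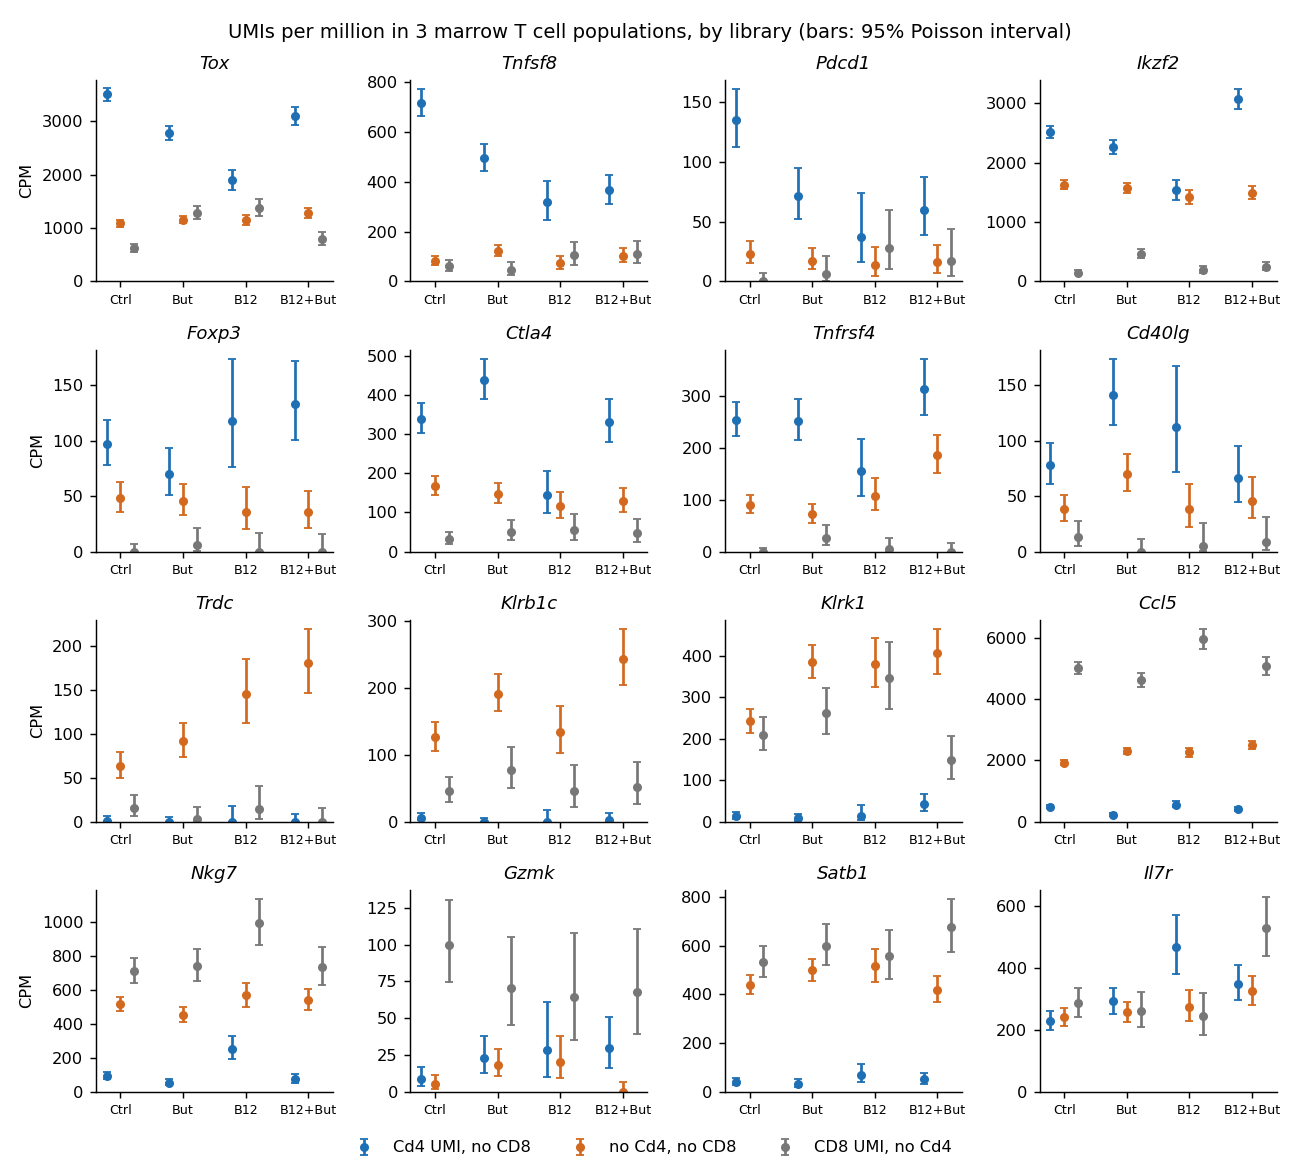
CPM (linear axis from 0) of 16 genes in Cd4+ cells, Cd4- cells and CD8 T cells, with 1 point per library and bars for exact Poisson 95% intervals, which cover counting error only. Follicular helper genes are highest in Cd4+ cells, Trdc and natural killer receptors are near 0 there, and Foxp3 is present in both Cd4+ and Cd4- cells and near 0 in CD8 T cells.

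Nkg7, a granule protein of killer cells, had 93.5, 53.2, 253 and 75.4 CPM in Cd4+ cells against 517, 454, 568 and 539 CPM in Cd4- cells (log2 fold change -2.43, SE 0.33, adjusted p = 0.0080), and the call was lost without Control (adjusted p = 0.11). Xcl1, a chemokine that attracts cross-presenting dendritic cells, had 30.8, 34.9, 42.2 and 45.7 CPM against 316, 232, 282 and 539 CPM (log2 fold change -3.20, SE 0.18, adjusted p = 1.8e-08). Ccl5, a chemokine of effector cells, had 485, 229, 558 and 407 CPM against 1916, 2291, 2254 and 2494 CPM (log2 fold change -2.53, SE 0.25, adjusted p = 0.0020), and it did not pass without B12 (adjusted p = 0.078). Cytotoxic genes that did not pass were Gzmk (0.94), Ccl4 (-2.37) and Cst7 (-0.22), with adjusted p = 0.39, 0.35 and 0.61. Of 8 type 1 helper genes 6 were lower in Cd4+ cells and none higher, with a median of -0.75. Among them Tbx21, which encodes T-bet, had -1.41 and Il12rb2, the interleukin-12 receptor subunit, -2.80 (adjusted p = 0.00026 and 6.2e-06). Ifng, the cytokine of type 1 responses, had 0.02 and did not pass (adjusted p = 0.99).

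Of 10 naive T genes 5 were lower in Cd4+ cells and none higher, with a median of -0.52. Satb1, a chromatin organiser that is held low in regulatory T cells, had 41.4, 33.4, 70.3 and 50.3 CPM against 441, 499.99, 517 and 419 CPM (log2 fold change -3.41, SE 0.17, adjusted p = 5.8e-09). Every Cd4- value was above every Cd4+ value. Also lower were Bach2 (-0.73), Foxp1 (-0.82) and Klf2 (-0.51), with adjusted p = 0.0066, 0.00014 and 0.023. The core naive genes Lef1, Tcf7 and Il7r had -0.52, 0.23 and 0.17 and did not pass (adjusted p = 0.35, 0.47 and 0.59). The memory and activation list was split, with 3 of 16 genes higher (Itgb1, Lgals1 and Maf) and 3 lower (Il2rb, Cxcr6 and Id2). Cxcr6, a chemokine receptor of tissue-resident T and NKT cells, had 43.6, 48.6, 28.1 and 50.3 CPM against 109.9, 156, 195 and 95.2 CPM (log2 fold change -1.60, SE 0.22, adjusted p = 0.00015).

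Few genes of the other lists were called. None of 17 immediate early and heat shock genes passed, nor did any of 4 DNA methylation enzymes or 6 cobalamin and one-carbon genes. At an unadjusted p under 0.05 by the same edgeR test the counts were 4, 1 and 2, and DESeq2 called 0, 0 and 0. Tet2, the gene for which the donor cells are heterozygous, had 133, 135, 113 and 139 CPM in Cd4+ cells and 108, 106, 80.5 and 88.1 CPM in Cd4- cells, and the log2 fold change of 0.37 did not pass (adjusted p = 0.18). Among cytokine receptors Il6ra was higher (0.98), and Il2rb (-0.99), Il4ra (-1.19), Ifngr1 (-0.74) and Il18r1 (-0.74) were lower, of 16. Of 14 cell cycle genes only Mki67 passed (1.15, adjusted p = 0.031), and with cells rich in myeloid RNA left out it did not (adjusted p = 0.49). Of 9 measured neutrophil genes 1, Lcn2, was lower in Cd4+ cells (-2.00), and it too did not pass without those cells (adjusted p = 0.39). The neutrophil list had a median log2 fold change of -2.44, and DESeq2 called 6 of its genes.

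Single cells were next divided by the genes that led these differences, in the order Foxp3, then Il21 or Sostdc1, then Trdc, then Ncr1 or Klrb1c. These marks were chosen after their values had been seen, so the groups are a description with no test, and a cell without a mark may have the transcript unread. Of 851 cells, 184 had a Foxp3 UMI, 91 had Il21 or Sostdc1, 64 had Trdc, 139 had Ncr1 or Klrb1c without Trdc, and 373 had none of these. Among the 361 Cd4+ cells the counts were 103 (28.5%), 81 (22.4%), 0, 4 and 173. Among the 490 Cd4- cells they were 81 (16.5%), 10, 64 (13.1%), 135 (27.6%) and 200. The Il21 or Sostdc1 group was 26.1, 23.4, 16.7 and 14.9% of Cd4+ cells by library, from 41, 25, 5 and 10 cells.

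The Foxp3 mark seldom met the Il21 or Sostdc1 marks in 1 cell, while Trdc and the natural killer receptors often met. Among Cd4+ cells, 103 had Foxp3 and 59 had Il21, and 1 had both. Likewise 1 had Foxp3 and Sostdc1, while 20 of the 44 Sostdc1 cells also had Il21. Among Cd4- cells 43 of 64 Trdc cells had Ncr1 or Klrb1c, and 53 of the 89 Zbtb16 cells did. Trac was read in 10.9% (95% interval 4.51 to 21.2%) of Trdc cells, 87.0% of Foxp3 cells, 90.1% of Il21 or Sostdc1 cells and 74.1% of cells with a natural killer receptor and no Trdc. The beta constant genes Trbc1 and Trbc2, which can be transcribed without a functional beta chain, were read in 92.2% of Trdc cells and 96.4% of cells with a natural killer receptor. The Trdc group thus largely lacked alpha chain transcripts and the receptor-bearing group without Trdc had them.

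Of the 12 regulatory T genes besides Foxp3, all 12 had a higher pooled CPM in Foxp3 cells than in cells with a natural killer receptor, 10 of them with 95% counting intervals apart. Against Il21 or Sostdc1 cells 10 of the 12 were higher, 8 with intervals apart, and Nrp1 and Izumo1r were lower. The share of all genes with intervals apart between these groups is not given here. The counts therefore describe the list only and do not show that it differs from other genes. Ikzf2 was at 3782, 5519, 3299 and 5052 CPM in the 4 libraries of Foxp3 cells, against 559, 663, 769 and 773 CPM in cells with a natural killer receptor. Ctla4 was at 454, 699.8, 251 and 537 CPM in Foxp3 cells and 22.98, 16.6, 48.03 and 21.2 CPM in the receptor group. Ikzf2 and Ctla4 were higher in Foxp3 cells in every library. Over the libraries pooled, Tnfrsf4 was at 456 CPM in Foxp3 cells, 161 in Il21 or Sostdc1 cells and 4.41 in the receptor group. Il2ra was at 212, 26.6 and 43.2 CPM. Itgae, the CD103 integrin chain of tissue-resident cells, was at 114, 1.57 and 5.29 CPM. Il1rl1, which encodes ST2, the interleukin-33 receptor found on tissue regulatory T cells, was at 61.5 CPM in Foxp3 cells and had no UMI in the Il21 or Sostdc1, Trdc and receptor groups. The UMIs of Frmd5, a membrane scaffold gene, were at 336 CPM in Foxp3 cells, with none in Il21 or Sostdc1 cells. Over all T cells without CD8 transcripts Frmd5 was read in only 25, 12, 1 and 12 cells by library.

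Of the 11 genes of the PD-1 and follicular helper list besides Il21 and Sostdc1, 9 had a higher pooled CPM in Il21 or Sostdc1 cells than in Foxp3 cells, 8 of them with 95% counting intervals apart. Tigit was lower, and Eomes had no UMI in either group. For this list too the share of all genes is not given, so the counts are a description only. The receptor gene Cxcr5 was at 46.99 against 13.3 CPM, and Bcl6, the factor that directs follicular helper cells, at 135 against 38.8 CPM. Ikzf2 was lower than in Foxp3 cells, at 1322 against 4447 CPM pooled. Tnfsf8 was at 1460.3, 1207, 637 and 1705 CPM by library, against 101, 18.9, 77.2 and 60.7 CPM in Foxp3 cells. Tox was at 5152, 3633, 2664 and 5714 CPM against 2325, 2939, 1457 and 2855 CPM. Both genes were higher in the Il21 or Sostdc1 group in each of the 4 libraries. Of genes outside that list, pooled over libraries, Cacna1d was at 912 CPM against 8.52, Cd200 at 213 against 18.9, and Tnc at 149 against 3.79. Spp1 was at 757 CPM against 1.89, and Hs6st3 at 368 CPM with no UMI in Foxp3 cells. This group had the highest median Cd3 count of the 5, with 13 UMIs against 7 in Foxp3 cells. Cd3 was part of the rule, and these counts are not scaled to depth. Among Cd4+ cells the group had median depths of 6091, 4754, 6931 and 5150 UMIs by library, against 4107, 3763, 4124 and 6045.5 in Foxp3 cells. In B12 it held only 5 Cd4+ cells, so its levels there rest on few cells.

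Trdc cells and cells with a natural killer receptor shared several genes. Ccl5 was at 4443, 4687, 3201 and 3765 CPM in Trdc cells and 2640.1, 2827, 3205 and 3717 CPM in the receptor group by library, against 308, 333, 357 and 589 CPM in Foxp3 cells. Xcl1 was at 637 and 446 CPM in the pooled groups against 17.04 CPM in Foxp3 cells. Klrk1 was at 606 and 541 CPM against 15.1. The naive-list gene Satb1 was also high in both, at 608 and 771 CPM against 33.1 in Foxp3 cells and 21.9 in Il21 or Sostdc1 cells. Trgc4, a gamma constant gene, differed between them, with 178 CPM in Trdc cells, 49.4 CPM in the receptor group and no UMI in Foxp3 or Il21 or Sostdc1 cells. Gamma constant genes resemble each other, so their split is uncertain. By library, Trdc cells were 11.05, 11.4, 14.5 and 19.05% of Cd4- cells, and the receptor group was 26.7, 27.8, 25 and 30.95%.

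**Figure D4:**
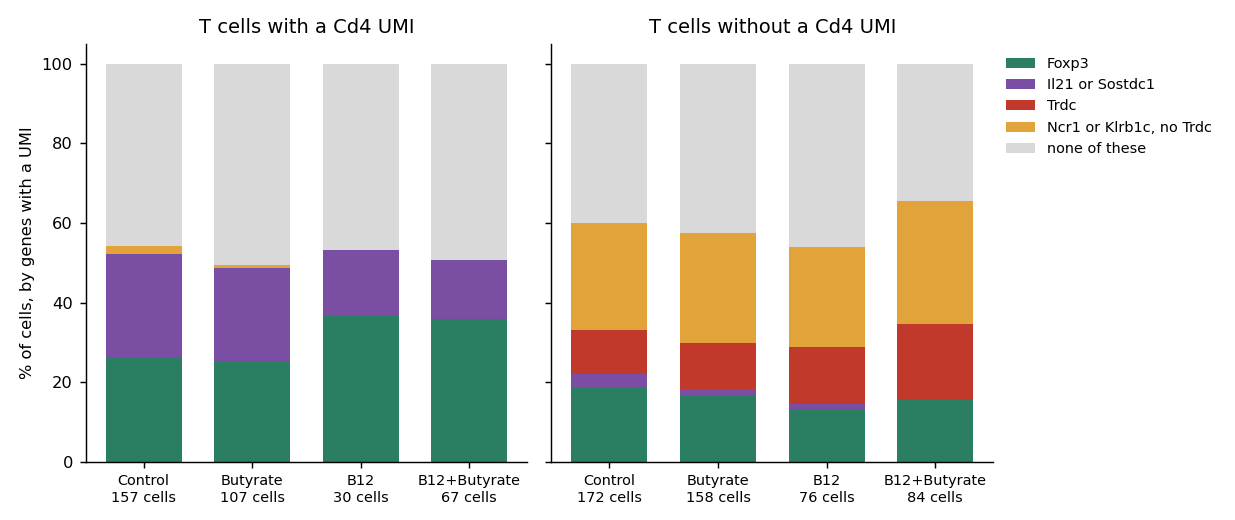
Stacked bars of the percent of cells in each library that fall in each of the 5 groups of T cells without CD8 transcripts, for Cd4+ cells on the left and Cd4- cells on the right, with the number of cells under each bar. Foxp3 cells are present on both sides, the Il21 or Sostdc1 cells are mostly on the left, and the Trdc cells and the cells with Ncr1 or Klrb1c are mostly on the right.

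T cells without CD8 transcripts were also compared with the 170 CD8 T cells of the same libraries. They had more RNA of regulatory T cell genes, of Cd40lg and Icos, and of Gata3, and less of naive and cytotoxic genes. edgeR's quasi-likelihood test, with the same block and Benjamini-Hochberg adjustment over 7367 genes, called 299 genes higher (4.06%) and 266 lower (3.61%), 7.67% in either direction. CD8 T cells were deeper, with medians of 5871 to 7185 UMIs, and the few of them, 30 to 58 a library, limit the precision. Of 11 measured regulatory genes 9 were higher and none lower, with a median of 2.43. Ikzf2 had 2031, 1853, 1456 and 2183 CPM against 149, 465, 198 and 251 CPM in CD8 T cells (log2 fold change 2.82, SE 0.35, adjusted p = 0.022), and it did not pass without B12+Butyrate (adjusted p = 0.17). Foxp3 had 354 UMIs against 2, a pooled ratio of 43.6-fold (95% counting interval 11.98 to 361). Nrp1 had 457, 374, 289 and 339 CPM against 54.7, 20.6, 22.996 and 25.6 CPM (log2 fold change 3.43, SE 0.19, adjusted p = 1.4e-07). Ctla4 had 246, 266, 126 and 218 CPM against 32.05, 50.1, 55.2 and 46.9 CPM (log2 fold change 2.19, SE 0.24, adjusted p = 8.2e-05). Il2ra had 99.1, 64.2, 65.1 and 144 CPM against 3.77, 14.7, 22.996 and 12.8 CPM (log2 fold change 2.84, SE 0.40, adjusted p = 0.00050). All 4 values of Ikzf2, Nrp1, Ctla4 and Il2ra lay above all 4 values in CD8 T cells.

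The helper genes Cd40lg and Icos had log2 fold changes of 3.06 and 2.54 over CD8 T cells (edgeR adjusted p = 0.0013 and 3.3e-05), and Cd28 had 0.07 and did not pass (adjusted p = 0.88). Maf had 365, 438, 269 and 283 CPM against 26.4, 38.3, 45.99 and 102 CPM (log2 fold change 2.72, SE 0.42, adjusted p = 0.019), a call lost without Butyrate (adjusted p = 0.059). Gata3, the factor of type 2 cells that is also needed by regulatory T cells, had 187, 196, 141 and 188 CPM against 35.8, 73.7, 73.6 and 51.1 CPM (log2 fold change 1.58, SE 0.23, adjusted p = 0.00043). Sostdc1 had 347 UMIs and Il21 133, with none in CD8 T cells, so that with a floor of 3 UMIs over the group they were at least 28.5-fold and 10.9-fold higher. Other genes without a UMI in CD8 T cells were Itgb8, an integrin chain that activates TGF-beta, at least 57.2-fold, B3galt1, a galactosyltransferase, at least 51.9-fold, and Dgki, a diacylglycerol kinase, at least 30.2-fold higher. Ralyl and Spp1 gave 51.7-fold and 47.4-fold on the same floor. Ralyl was read in only 14, 9, 5 and 5 cells by library, and Spp1 in 30, 13, 4 and 5. A floor of UMIs takes UMIs of 1 cell as independent, so a bound for a gene read in few cells is overstated. Trdc, with 328 UMIs against 12, had a log2 fold change of 2.68 (adjusted p = 0.011), a call that was lost without Butyrate or B12 (adjusted p = 0.061 and 0.076).

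Cytotoxic genes were lower than in CD8 T cells for 8 of 16 measured and higher for none. Gzmk, granzyme K, had 6.76, 20.2, 22.7 and 12.9 CPM against 99.9, 70.7, 64.4 and 68.2 CPM in CD8 T cells (log2 fold change -2.54, SE 0.36, adjusted p = 0.00054). Prf1, perforin, had 11.1, 20.8, 19.7 and 9.95 CPM against 54.7, 64.8, 59.8 and 42.6 CPM (log2 fold change -2.00, SE 0.29, adjusted p = 0.00045). Both were lower in each library. Gzmm, granzyme M, had -2.89, Ccl5 -1.88 and Nkg7 -1.27 (edgeR adjusted p = 0.00071, 1.1e-08 and 4.7e-06), while Klrk1 and Xcl1 had -0.25 and 0.35 and did not pass (adjusted p = 0.59 and 0.39). Of 10 naive genes 7 were lower, among them Lef1 (-1.10), Satb1 (-1.09) and Tcf7 (-0.55), with adjusted p = 0.0010, 9.5e-05 and 0.027. The median of that list was -0.66, against 0.03 for all genes. Tcf7 did not pass without Butyrate, B12 or B12+Butyrate (adjusted p = 0.26, 0.087 and 0.091). The immediate early list had 4 of 17 higher and none lower, namely Dusp1 (1.69), Nfkbia (1.08), Zfp36 (0.76) and Junb (0.49), with adjusted p = 0.00037, 0.00039, 0.040 and 0.032. Zfp36 did not pass with cells rich in myeloid RNA left out (adjusted p = 0.29). Of 17 receptor complex genes 1 was higher and 2 were lower, and none of 11 MHC class I genes passed, with 0 at an unadjusted p under 0.05 and 0 called by DESeq2.

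The treatments were compared by CPM within T cells without CD8 transcripts. With 1 library a group there is no test, and a gene is counted when its ratio, with 10 CPM added to both values, passed 2-fold and either library reached 50 CPM. B12 against Control had 19 genes higher (0.459% of 4143) and 61 lower (1.47%), and Butyrate against Control had 7 higher (0.169% of 4132) and 42 lower (1.02%). B12+Butyrate against B12 had 34 higher (0.821% of 4142) and 31 lower (0.748%), and B12+Butyrate against Butyrate had 26 higher (0.631% of 4123) and 13 lower (0.315%). These comparisons share libraries. The cells are a mix of kinds, so fewer cells of a kind and less RNA per cell cannot be told apart in these sums. Of the pairs that share none, B12 passed 2-fold the same way in both for 2 genes, Klra7 and Klra8, both higher, and butyrate for 6 genes, all lower. Of those 6 only Spp1 met the limits for named genes, which ask for a level in T cells at or above that of all other barcodes.

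Among the largest ratios above 0 with B12 were those of Trdc, Trgc4, Klra7 and Klra8, genes of gamma-delta and Ly49 receptors, but not every gene of these families was higher. Trdc was at 34.8, 54.5, 98.4 and 101 CPM, read in 20, 18, 11 and 16 cells, a log2 ratio of 1.28 for B12 against Control. Both libraries with B12 were above both without it. Trgc4 was at 18.8, 18.4, 63.6 and 42.8 CPM, a log2 ratio of 1.35. Klra7 was at 31.9, 58.1, 84.8 and 135 CPM in 16, 16, 11 and 22 cells, with log2 ratios of 1.18 for B12 against Control and 1.09 for B12+Butyrate against Butyrate. Klra8, which encodes Ly49H, was at 3.87, 20.2, 71.2 and 52.7 CPM but in only 2, 3, 3 and 6 cells, so its level rests on very few cells. In all other barcodes of Control and B12, Trdc was at 0.160 and 0.149 CPM. Klra7 was at 1.39 and 1.32 CPM there and Klra8 at 1.40 and 1.63 CPM. With 10 CPM added, such low levels keep the log2 ratios near 0 (0.00, -0.01 and 0.03), so those barcodes cannot serve as a comparison. The Cd4- share of these T cells was highest in B12 as well. Within Cd4- cells alone Trdc was at 62.9, 91.2, 145 and 179.8 CPM, again higher in both libraries with B12. Of 9 gamma-delta list genes only Trdc and Trgc4 reached 50 CPM in B12 or Control. Below that level Trgc1 and Trgc2 had log2 ratios of 0.69 and 0.66 for B12 against Control but -0.20 and -0.08 for B12+Butyrate against Butyrate, and Scart1 and Trdv4 had -0.42 and -0.25 for B12 against Control. Of other Ly49 genes, Klra5 had -0.94 for B12 against Control, and Klra3 was at 15.5, 17.7, 15.1 and 12.9 CPM, no higher with B12.

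The largest ratios below 0 for B12 against Control were of Map2, Thsd7a, B3galt1, Slc24a3 and Gm2663. Map2, Slc24a3, B3galt1 and Thsd7a had also been higher in Cd4+ than in Cd4- cells (log2 fold changes 1.00, 1.03, 1.86 and 1.81, edgeR adjusted p = 0.019, 0.00077, 9.7e-06 and 0.0038). Map2, a microtubule-associated protein, was at 81.7, 47.7, 1.51 and 60.7 CPM, Slc24a3, a sodium-calcium exchanger, at 208, 144, 34.8 and 191 CPM, and B3galt1 at 187, 67.3, 24.2 and 119 CPM. Their log2 ratios for B12 against Control were -2.99, -2.28 and -2.52. For all 3 the B12 library was the lowest of the 4, and B12+Butyrate lay above it. Within Cd4+ cells alone B12 was also lowest, with B3galt1 at 299.6, 112, 60.9 and 217 CPM and Slc24a3 at 306, 207, 32.8 and 288 CPM. Those B12 values rest on few cells, with 13 UMIs in 5 cells for B3galt1 and 7 UMIs in 2 cells for Slc24a3. Map2, Slc24a3 and Nav2, a cytoskeletal regulator, had log2 ratios of 2.62, 2.16 and 2.03 for B12+Butyrate against B12, and Nav2 was at 319, 302, 72.7 and 328 CPM. Thsd7a, a thrombospondin-domain protein, was at 57.5, 22.6, 0 and 74.6 CPM, with 40% of its B12+Butyrate UMIs in 1 of 11 cells. It had no UMI in B12, whose floor of 3 UMIs corresponds to 4.54 CPM. B3galt1, Thsd7a and Hs6st3 passed 2-fold in opposite directions in the butyrate pairs, lower in Butyrate against Control and higher in B12+Butyrate against B12. Hs6st3 was read in only 19, 7, 3 and 4 cells.

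Butyrate against Control was led by lower values of genes that marked Cd4+ cells. Cacna1d was at 249, 65.5, 74.2 and 131 CPM, Tshz2 at 142, 37.9, 30.3 and 37.8 CPM and Sostdc1 at 115, 31.2, 21.2 and 42.8 CPM. Their log2 ratios for Butyrate against Control were -1.78, -1.66 and -1.61. Control was the highest of the 4 libraries for each gene, and the other 3 libraries were closer to each other. Within Cd4+ cells alone, Sostdc1 was at 244, 66.8, 65.6 and 98.2 CPM and Cacna1d at 521, 143, 150.01 and 260.4 CPM, so Control was highest there too. Those UMIs came from 28, 10, 2 and 4 cells for Sostdc1 and 60, 27, 6 and 17 cells for Cacna1d, so some levels rest on few cells. Spp1 was at 156, 18.4, 239 and 66.7 CPM, with log2 ratios of -2.55 for Butyrate against Control and -1.70 for B12+Butyrate against B12, but 78.5% of its B12 UMIs came from 1 cell. Arnt2, a basic helix-loop-helix factor, was higher in Butyrate than in Control, at 23.2, 61.2, 42.4 and 43.8 CPM in 40, 51, 12 and 26 cells (log2 ratio 1.10). The stem cell genes Mecom and Angpt1 had log2 ratios of 1.75 and 1.36 for Butyrate against Control. Their UMIs came from few cells in every library, 3, 3, 1 and 1 for Mecom and 10, 7, 4 and 4 for Angpt1, and 1 cell held 65.1% and 60% of the Butyrate UMIs. With every barcode thinned to 2000 UMIs both ratios turned, to -0.16 for Mecom and -0.67 for Angpt1. The part of progenitor RNA in both ratios was not tested.

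**Figure D5:**
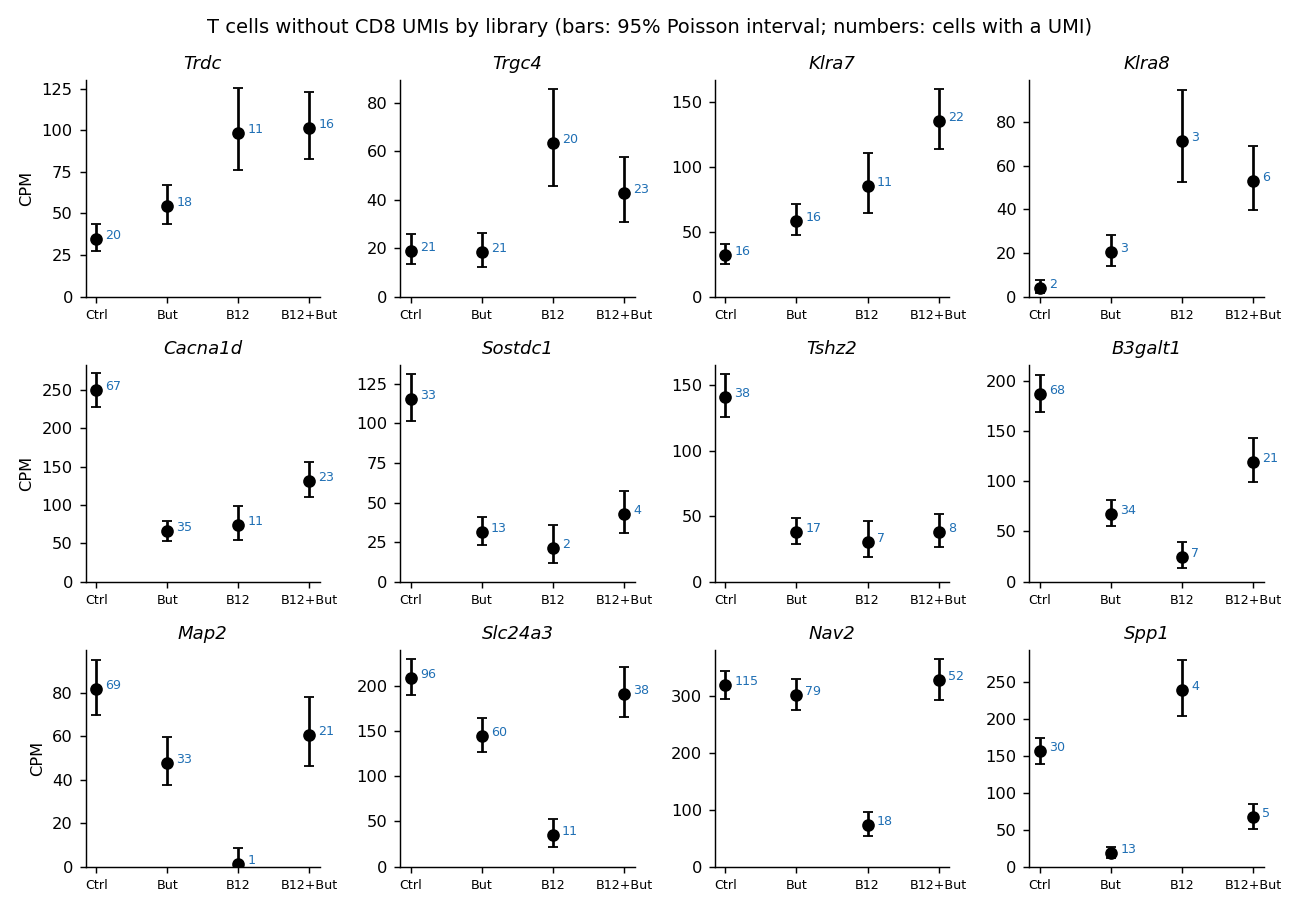
CPM of 12 genes in T cells without CD8 transcripts by library, with exact Poisson 95% intervals that cover counting error only; numbers give the cells with a UMI. Trdc, Trgc4, Klra7 and Klra8 are higher in the 2 libraries with B12, and Cacna1d, Sostdc1 and Tshz2 are highest in Control.

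Described by list, the values of regulatory T genes in B12 were below those in Control and below those in B12+Butyrate. Of 9 measured genes, 0 had a log2 ratio above 0 for B12 against Control (median -0.54) and 9 did for B12+Butyrate against B12 (median 0.62). Those comparisons share the B12 library. The counts were 3 of 9 for Butyrate against Control (median -0.18) and 6 of 9 for B12+Butyrate against Butyrate (median 0.23), and the median of all genes lay between -0.02 and 0.01. Foxp3 was at 70.1, 55.1, 62.1 and 77.6 CPM over all T cells without CD8 transcripts and Ctla4 at 246, 266, 126 and 218 CPM. The Cd4+ share was also lowest in B12, and within Cd4+ cells alone the list had 1 of 10 above 0 for B12 against Control and 9 of 10 for B12+Butyrate against B12, with medians of -0.63 and 0.92. The 1 gene above 0 for B12 against Control was Foxp3 itself, at 96.7, 69.9, 117 and 132 CPM in Cd4+ cells. A Foxp3 UMI was found in 26.1, 25.2, 36.7 and 35.8% of Cd4+ cells. Of 8 measured PD-1 and follicular helper genes 2 were above 0 for B12 against Control (median -1.06) and 2 for Butyrate against Control (median -0.30). NK cell genes were above 0 for 5 of 5 measured in B12 against Control (median 0.44) and 8 of 8 in B12+Butyrate against Butyrate (median 0.47), and also for 4 of 4 in Butyrate against Control (median 0.34). Naive genes were above 0 for 9 of 9 in B12 against Control (median 0.47), 7 of 9 in B12+Butyrate against Butyrate (median 0.20) and 7 of 9 in Butyrate against Control (median 0.14).

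Genes tied to the agents themselves seldom passed 2-fold. Of 7 measured genes of butyrate transport, sensing and histone deacetylation, 2 had a log2 ratio above 0 for Butyrate against Control (median -0.08) and 4 for B12+Butyrate against B12 (median 0.00). A single cobalamin or one-carbon gene reached the level measured. The 4 DNA methylation enzymes had medians of -0.31, -0.17, 0.31 and 0.08 in the 4 comparisons, B12 against Control, Butyrate against Control, B12+Butyrate against B12 and B12+Butyrate against Butyrate. Tet2 was at 119, 117, 90.8 and 110.4 CPM. Of these lists, the gene that passed 2-fold was Hdac9, a histone deacetylase, in B12+Butyrate against Butyrate (log2 ratio -1.15), at 97.1, 197, 157 and 83.6 CPM.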

How the data were processed

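Single-cell RNA of CD45.2+ marrow was measured in 4 libraries (Control, Butyrate, B12, B12+Butyrate). Each deposited matrix holds raw, unnormalized UMI counts that Cell Ranger 7.1.0 wrote, per the file headers, with GRCm39 as the genome build per the submitters' processing notes. The sources used here do not give whether intron reads were counted or how empty droplets were filtered. Barcodes were kept at 500 genes, 1000 UMIs and 10% mitochondrial UMIs, and members were chosen by the gene limits given above. No doublets were removed in the values given, and a simulated-doublet score called 36 of the members (12, 13, 5 and 6 by library). The members and all gene lists were chosen with earlier results of these data known.

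UMIs were summed per library and population. CPM are UMIs scaled to 1000000 UMIs of that sum, with exact Poisson 95% intervals, and cell shares were given Clopper-Pearson 95% intervals. Both cover counting error only, for member sums of 660510 to 2069532 UMIs. Counting intervals and floors of UMIs take UMIs as independent, although several can come from 1 cell. Populations were compared with edgeR 4.0.16 in R 4.3.3 (TMM, default expression filter, robust quasi-likelihood test, library as block, Benjamini-Hochberg adjustment). The block pairs populations of 1 library, which come from the same pooled mice. Genes of the member rule, Cd4 and mitochondrial genes were left out of counts. A gene called in these tests has an adjusted p under 0.05. The script was tested on simulated data. Treatment comparisons used log2 ratios of CPM with 10 CPM added, genes of at least 50 CPM in either library, and no test.

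Named genes were list genes, the up to 12 genes a direction with the largest fold change that passed with 1 sign in 4 libraries at 50 CPM, and for treatment the up to 5 largest ratios a direction among genes at or above their level in other barcodes, plus those past 2-fold in both pairs. A few others, namely Trgv2, Frmd5 and Hdac9, were chosen after their values were seen. A few genes that these rules name are not reported here. Alternatives were a 5% mitochondrial limit, at least 3 Cd3 UMIs, no Camp and Ngp limit, doublets removed, at least 2000 UMIs, thinning to 2000 UMIs, DESeq2 1.42.0, no expression filter, no block, each library left out, 1 CPM added, a 20 CPM minimum and, chosen after seeing the data, no cells rich in myeloid RNA. Other work used Python 3.11.15 with scipy 1.17.1 (exact intervals), scikit-learn 1.9.0 (doublet scores), pandas 2.3.3, numpy 2.4.6 and matplotlib 3.10.9.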

Additional observations from a re-analysis of the deposited data

Results flagged for a closer look

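The share of T cells without CD8 transcripts that had a Cd4 UMI gave log2 ratios of opposite sign for butyrate without and with B12. The log2 ratio of that share was -0.241 (counting interval -0.508 to 0.026) for Butyrate against Control. It was 0.649 (counting interval 0.141 to 1.156) for B12+Butyrate against B12. For B12 without butyrate (B12 against Control) it was -0.754 (counting interval -1.22 to -0.287). With butyrate (B12+Butyrate against Butyrate) it was 0.136 (counting interval -0.197 to 0.469). The intervals of Butyrate against Control and of B12+Butyrate against Butyrate spanned both signs. The direction of those ratios is therefore not set beyond counting error. Each group is 1 library, and the difference between the pairs was not tested. B12 held 30 Cd4+ cells of 106, the fewest of the 4 libraries.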

How the results depend on the processing

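Counts of 1 library a group and of 106 to 329 cells limit every treatment value here. Thinning to 2000 UMIs, which leaves few UMIs a gene, moved 18 shares and counts and left 6 within their limits. Of single-gene results when thinned, 97 kept direction and call, while 45 were weaker, 8 moved and 5 reversed. Shares of members moved to 3.31% in Control with at least 3 Cd3 UMIs. Without the Camp and Ngp limit they were 4.54% in Control, 1.85% in B12 and 2.65% in B12+Butyrate, and thinned they were 3.01% in Control, 3.11% in Butyrate and 1.54% in B12+Butyrate. The Cd4+ share of members was 42.1% in Control and 34.7% in B12+Butyrate without that limit, and 33.3, 23.2, 15.8 and 25.9% by library when thinned. Genes past 2-fold in B12 against Control (19 higher, 61 lower) were 4 higher without the limit, 103 higher and 196 lower thinned, 40 higher and 98 lower without cells rich in myeloid RNA, 39 higher with 1 CPM added, and 35 higher and 106 lower from 20 CPM. In Butyrate against Control (7 higher, 42 lower) they were 11 higher at 5% mitochondrial UMIs, 12 higher with 3 Cd3 UMIs, 16 higher thinned, 12 higher without myeloid-rich cells, 12 higher with 1 CPM added, 13 higher and 68 lower from 20 CPM, 23 lower without the limit, and 66 lower with doublets removed. In B12+Butyrate against B12 (34 higher, 31 lower) they were 17 higher and 5 lower without the limit, 226 higher and 152 lower thinned, 52 higher with 1 CPM added, and 94 higher and 76 lower from 20 CPM. In B12+Butyrate against Butyrate (26 higher, 13 lower) they were 64 higher and 20 lower without the limit, 74 higher and 68 lower thinned, 49 higher and 24 lower from 20 CPM, and 23, 20 and 22 lower with 3 Cd3 UMIs, without myeloid-rich cells and with 1 CPM added. The Cd4 test (313 higher, 353 lower) gave 724 and 1037 without the limit, 114 and 138 thinned, 203 higher with DESeq2, 630 lower with no expression filter, and 202 to 393 higher and 235 to 453 lower with 1 library left out. The test against CD8 T cells (299 higher, 266 lower) gave 141 and 151 thinned, 683 higher with no filter, and 213 to 361 higher and 183 to 287 lower with 1 library left out. Without the replicate block the counts were 314 and 365, and 310 and 265. The log2 values that reversed were, when thinned, Angpt1 in B12+Butyrate against Butyrate (0.20), Angpt1 (-0.67), Mecom (-0.16) and Ptprk (-0.54) in Butyrate against Control, and Ms4a6c in the Cd4 test (-1.06), and Mki67 without the limit (-0.33). The cause was not tested. Of 1284 single-gene alternatives of the Cd4 test, 1148 kept direction and call, as did 939 of 1087 in the CD8 test, and 385 of 410 for treatment genes.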

Other observations

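The homing genes were split between Cd4+ and Cd4- cells. Itga4, a chain of the integrin VLA-4 that binds marrow stroma, had 1169.6, 1173, 966 and 979.95 CPM in Cd4+ cells and 557, 568, 742 and 686 CPM in Cd4- cells (log2 fold change 0.71, SE 0.13, adjusted p = 0.0019, edgeR). Selplg, the ligand of P-selectin, had 84.98, 173, 103 and 109.6 CPM against 181, 208, 239 and 234 CPM (log2 fold change -0.92, SE 0.17, adjusted p = 0.0020). In all, 2 of 13 measured homing genes were higher in Cd4+ cells (Itga4 and Itgb1) and 3 were lower, among them Selplg and Klf2, while Cxcr4, the marrow retention receptor, had a log2 fold change of 0.28 and did not pass (adjusted p = 0.55). Of the 11 MHC class I genes, H2-Q7 was lower in Cd4+ cells (-0.55, adjusted p = 0.0041).

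The 373 T cells with none of the marks used above lay between the groups. Pooled over libraries, their Ikzf2 was at 1831 CPM, Tox at 1874 CPM, Ccl5 at 949 CPM and Satb1 at 165 CPM. Tcf7, a factor of naive and memory cells, was lowest in Foxp3 cells at 36.9 CPM, against 305 CPM in Il21 or Sostdc1 cells, 282 in Trdc cells, 208 in the receptor group and 229 in unmarked cells. Cd40lg was at 136 CPM in Il21 or Sostdc1 cells and 20.8 in Foxp3 cells.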
